A study of Mus musculus with 6 samples.

Results

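The elastic fibre and lysyl oxidase genes form a fixed list of 10: elastin (Eln), the fibrillins Fbn1 and Fbn2, the fibulins Fbln1, Fbln2 and Fbln5, the lysyl oxidases Lox, Loxl1 and Loxl3, and the microfibril-associated glycoprotein gene Mfap5. They were found by symbol among the 25006 Ensembl genes counted by RNA sequencing, and all 10 had exactly 1 matching identifier. Libraries came from MOSE-PAX8, a stable line of mouse ovarian surface epithelial (MOSE) cells that overexpresses the transcription factor PAX8 (3 libraries), and from MOSE-NEO, the reference line (3 libraries). Both lines were grown in medium with G418, the drug that selects for the introduced construct, and received no other treatment. Each group is a single stable line. The sources used here do not say whether a line is a clone or a pool, or which promoter drives Pax8.

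Elastic fibres give matrix its recoil. Fibrillins assemble into microfibrils outside the cell, microfibril-associated proteins decorate them, and fibulin-5 and its relatives bring tropoelastin onto that scaffold. Lysyl oxidases, copper enzymes, then oxidise lysines in elastin and in fibrillar collagens so that the chains cross-link. The ovarian surface is a mesothelial layer on a collagen-rich matrix.

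Library totals ran from 23623762 to 36367825 counts, so a gene with 0 counts in a library may still have had up to 3 counts, a limit of 0.082 to 0.13 CPM (counts scaled to the library total, with TMM factors throughout) that covers counting error only. Pax8 had 2570, 2973 and 3544 counts in the MOSE-PAX8 libraries, against 0, 1 and 1 in the MOSE-NEO libraries. Both lines had counts for all 12 mesothelial and ovarian surface markers read here, with a summed level of 9358 to 11022 CPM in MOSE-PAX8, against 16226 to 18006 CPM in MOSE-NEO, and 9 of the 12 fell (16.1% of all tested genes did). Krt8 and Krt19, keratins of that list, had no more than 34 counts in any library. Krt8 is among the 9, with 12, 9 and 11 counts in MOSE-PAX8, against 34, 15 and 19 in MOSE-NEO. Only in MOSE-NEO did every library have enough Krt8 counts for the test. Cdh5 of the endothelial list and Fshr and Cyp19a1 of the granulosa list were at 0 in every library, but others of these lists had counts. Pecam1 had 2, 1 and 6 counts in MOSE-PAX8, against 12, 4 and 27 in MOSE-NEO. Foxl2 had 57, 47 and 78 counts in MOSE-PAX8, against 0, 1 and 0 in MOSE-NEO. Inha averaged 23.2 CPM in MOSE-PAX8 and 30.3 CPM in MOSE-NEO. Counts of replicates varied by 13.3 times their sampling variance or more, so each library was kept. The labels name no separate cultures, and the p-values therefore cover the spread between libraries, which may be technical.

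The list ran from a very abundant cross-linking enzyme to structural genes that were nearly absent. Lox stood above 99.9% of tested genes in MOSE-PAX8 and 99.8% in MOSE-NEO, per length. Eln, Fbn1, Fbn2, Fbln1 and Mfap5 lay at the other end, at or under 4.62 CPM in every library. In MOSE-PAX8 the libraries of Lox, Fbln5 and Fbn1 lay above those of MOSE-NEO, and those of Loxl3 lay below. Fbln2 and Loxl1 did not pass the test.

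Of the 10 genes, 6 had enough counts to be tested. With edgeR's quasi-likelihood test at an adjusted p below 0.05, 3 of the 6 rose (Fbn1, Fbln5 and Lox), against 17.9% of all 12313 tested genes. Loxl3 alone fell (1 of 6), against 16.1% of all tested genes. For both directions together this was 4 of 6, against 33.9%. In the same 3 genes every MOSE-PAX8 library was above every MOSE-NEO library (25.3% of tested genes), and in Loxl3 every one was below (22.2%), together 4 of 6 against 47.6%. The median log2 fold change of the 6 was 0.10, against 0.008 for all tested genes. With so few genes, no reading is made of these shares. Against a fold of 1.5, none of the 6 passed (0 genes).

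**Figure D1:**
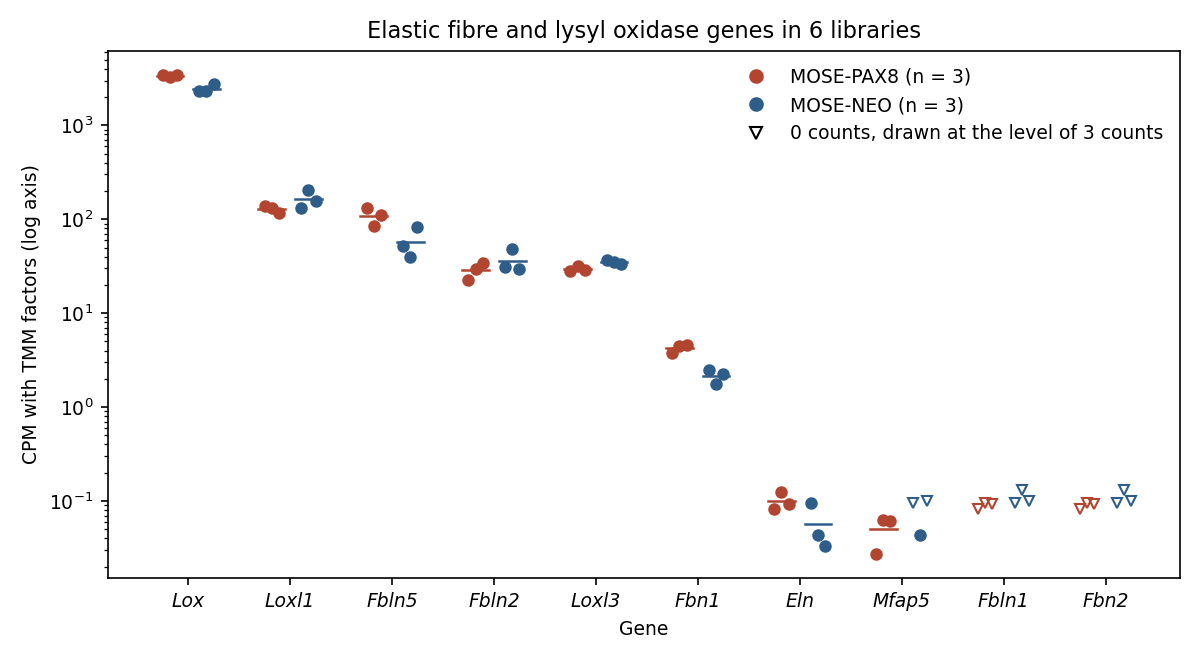
CPM (log axis) of the 10 genes in each library, MOSE-PAX8 left of MOSE-NEO, with a bar at the mean where every library had counts; open triangles mark libraries with 0 counts at the level of 3 counts. Lox lies above 2304 CPM in every library, while Eln, Mfap5, Fbln1 and Fbn2 lie at or near the detection limit.

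Lox, the founding enzyme of the family, had 3466, 3266 and 3428 CPM in MOSE-PAX8 libraries 1 to 3, against 2318, 2305 and 2765 CPM in MOSE-NEO libraries 1 to 3. All MOSE-PAX8 libraries were higher than the highest MOSE-NEO library, with the third MOSE-NEO library the nearest. The mean was 3387 ± 106 CPM in MOSE-PAX8 and 2463 ± 262 CPM in MOSE-NEO (SD, n = 3 each), a log2 fold change of 0.46 ± 0.10 SE (edgeR adjusted p = 0.00921). Lox is on chromosome 18, from 52516067 to 52529867 (mm10, minus strand), and the median log2 fold change of that chromosome was 0.06. The call held without each library in turn (adjusted p from 0.00464 to 0.0464), and the log2 fold change then ranged from 0.40 to 0.55.

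Loxl1, the relative known from mouse work for cross-linking elastin, had 138, 133 and 117 CPM in the MOSE-PAX8 libraries, against 132, 208 and 156 CPM in the MOSE-NEO libraries. The ranges overlapped, and the second MOSE-NEO library was the highest. The log2 fold change was -0.35 (95% interval -0.70 to -0.0024, edgeR adjusted p = 0.114). Without MOSE-NEO replicate 2, that highest library, it was -0.17 (adjusted p = 0.337), and with the chromosome median removed -0.28 (0.212). Without MOSE-NEO replicate 1 it was -0.50 and passed (adjusted p = 0.0251), as it did when MOSE-PAX8 replicate 2 and MOSE-NEO replicate 1 were left out together (-0.52, adjusted p = 0.0425). These are the libraries with the largest share of counts in lincRNA genes, 0.33% for MOSE-PAX8 replicate 2 and 0.317% for MOSE-NEO replicate 1, against 0.146% to 0.195% in the others.

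Loxl3, a lysyl oxidase with scavenger receptor domains, had 28.4, 31.8 and 28.5 CPM in the MOSE-PAX8 libraries, against 37.1, 35.1 and 33.3 CPM in the MOSE-NEO libraries. The lines did not overlap, but the highest MOSE-PAX8 library (31.8 CPM) was close to the lowest MOSE-NEO library (33.3 CPM). The log2 fold change of -0.25 ± 0.08 SE just passed (edgeR adjusted p = 0.0484). The call ended without MOSE-PAX8 replicate 1 or 3 (adjusted p = 0.147 and 0.17), without MOSE-NEO replicate 1, 2 or 3 (0.115, 0.0932 and 0.0584), and with the replicate number as a block (0.0725). Exons of Loxl3 share 535 bases with Htra2 on the opposite strand, and without a stated strand setting their reads cannot be told apart there. Htra2 had 30.1 ± 1.64 CPM in MOSE-PAX8 and 30.7 ± 3.55 CPM in MOSE-NEO (SD, n = 3 each).

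Within each library, Lox made up most of the lysyl oxidase family. Per length, its share of the summed level of Lox and Loxl1 to Loxl4 was 87.2%, 87.1% and 87.2% in the MOSE-PAX8 libraries, against 80.7%, 77.9% and 81.6% in the MOSE-NEO libraries. Loxl1 held 4.33% to 5.13% in MOSE-PAX8 and 6.66% to 10.2% in MOSE-NEO, and Loxl3 held 0.743% to 0.88% in MOSE-PAX8 and 1.02% to 1.34% in MOSE-NEO. Loxl2 held 6.84% to 7.69% in MOSE-PAX8 and 10.7% to 11.3% in MOSE-NEO. The shares of Lox, Loxl1, Loxl2 and Loxl3 did not overlap between the lines. They are parts of the same sum, so a larger Lox share lowers the others, and these are not separate results. The ratio of Lox to Loxl1 per length averaged 18.2 ± 1.74 in MOSE-PAX8 and 10.7 ± 2.60 in MOSE-NEO (SD, n = 3 each). The exact permutation test of this ratio (two-sided) gave p = 0.1, which is the smallest that 3 libraries against 3 allow. It was also 0.1 after Benjamini-Hochberg adjustment over the 4 ratios computed.

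Fbln5, the fibulin that binds cells through integrins and tropoelastin through its other domains, had 131, 84.6 and 112 CPM in the MOSE-PAX8 libraries, against 52.0, 39.8 and 81.9 CPM in the MOSE-NEO libraries. The lines did not overlap, although the lowest MOSE-PAX8 library (84.6 CPM) was close to the highest MOSE-NEO library (81.9 CPM). The mean was 109 ± 23.5 CPM in MOSE-PAX8 and 57.9 ± 21.7 CPM in MOSE-NEO (SD, n = 3 each). The log2 fold change was 0.92 ± 0.25 SE (edgeR adjusted p = 0.0228). The call ended without MOSE-PAX8 replicate 1 or 3 (adjusted p = 0.073 and 0.0597), without MOSE-NEO replicate 1 or 2 (0.0832 and 0.0694), and when the lincRNA-rich pair was left out (0.0586). Fbln5 is on chromosome 12, whose median log2 fold change was 0.19, and with that median removed the value was 0.73 (adjusted p = 0.0619). Over all settings tried, the adjusted p ran from 0.00191 to 0.314.

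Fbn1, the fibrillin of the microfibril core, was low in both lines and higher in MOSE-PAX8. Its counts were 139, 142 and 150 in the MOSE-PAX8 libraries, against 78, 41 and 67 in the MOSE-NEO libraries. In CPM this was 3.80, 4.46 and 4.62 in MOSE-PAX8, against 2.48, 1.78 and 2.22 in MOSE-NEO, with no overlap. The log2 fold change was 0.98 ± 0.19 SE (edgeR adjusted p = 0.00485), or 1.97-fold. This and the value of Fbln5 differed by less than their standard errors, and Fbln5 was the higher without MOSE-NEO replicate 3 (1.25 for Fbln5 and 1.00 for Fbn1) and without MOSE-PAX8 replicate 2 (1.07 and 0.95). It held without each library in turn (adjusted p from 0.00938 to 0.0251). Even in MOSE-PAX8, Fbn1 stood above only 8.99% of tested genes per length. Exons of Fbn1 share 2442 bases with an opposite-strand gene, Gm9913, that was not among the counted genes. Without a stated strand setting, reads of the 2 genes cannot be told apart there.

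RefSeq promoter windows (250 bases before to 50 after a start site, GRCm38.p6, the same assembly as mm10) were read for 4 of the 10 genes. These were Fbn1, Fbln1, Fbln2 and Fbln5, with 6 windows. Sequences are shown for Fbln5 and Fbn1, which rose, and for the second window of Fbln1, which had no counts in either line, so that their composition can be compared. They read 5′ to 3′ on the gene's strand, and capitals mark GC boxes (GGGCGG on either strand).
Fbln5 window 1, chr12:101819070-101819369, minus strand: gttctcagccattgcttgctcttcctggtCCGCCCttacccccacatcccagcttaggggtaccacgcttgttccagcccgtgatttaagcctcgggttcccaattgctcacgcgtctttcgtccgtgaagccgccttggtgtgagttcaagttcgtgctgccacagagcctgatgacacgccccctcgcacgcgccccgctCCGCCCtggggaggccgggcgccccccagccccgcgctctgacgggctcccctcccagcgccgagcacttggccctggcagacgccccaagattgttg
Fbln5 window 2, chr12:101818435-101818734, minus strand: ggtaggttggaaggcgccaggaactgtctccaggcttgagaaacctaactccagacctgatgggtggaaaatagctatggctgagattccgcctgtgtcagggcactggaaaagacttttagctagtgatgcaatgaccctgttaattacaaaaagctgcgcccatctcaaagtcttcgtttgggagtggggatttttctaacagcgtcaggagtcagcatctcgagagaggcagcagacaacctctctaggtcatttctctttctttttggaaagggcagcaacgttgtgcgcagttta
Fbn1, chr2:125506389-125506688, minus strand: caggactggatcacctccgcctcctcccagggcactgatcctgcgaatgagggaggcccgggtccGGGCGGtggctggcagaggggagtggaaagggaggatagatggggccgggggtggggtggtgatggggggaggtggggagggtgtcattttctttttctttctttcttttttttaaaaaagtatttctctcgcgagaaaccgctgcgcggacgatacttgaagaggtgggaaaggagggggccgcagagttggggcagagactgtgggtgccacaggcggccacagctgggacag
Fbln1 window 2, chr15:85205758-85206057, plus strand: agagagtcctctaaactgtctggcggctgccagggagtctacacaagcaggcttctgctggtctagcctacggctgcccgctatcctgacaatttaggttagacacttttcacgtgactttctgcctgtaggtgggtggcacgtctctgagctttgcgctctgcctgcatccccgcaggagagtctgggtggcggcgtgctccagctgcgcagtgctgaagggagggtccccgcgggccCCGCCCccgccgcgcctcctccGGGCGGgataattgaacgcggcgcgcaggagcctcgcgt

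The upstream window of Fbln5 and the Fbln1 window each held 24 CpG dinucleotides, more than 80% of all 32851 windows in the table, where the median is 7. The Fbn1 window held 14 and the other Fbln5 window 8. GC boxes were found in Fbln5 window 1 (first base at -221 and -48 from the start site), Fbn1, Fbln2 and Fbln1 window 2, and 35.7% of all windows hold at least 1. A core of the paired-domain consensus shared by Pax2, Pax5 and Pax8 (GCGTGAC) occurs in 2.09% of all windows, and these letters were in none of the 6. The AP-1 letters TGANTCA occur in 7.81% of all windows, the TEAD letters GGAATG in 14.7% and the core promoter letters TATAAA in 13.6%, and none of these was in the 6 windows either. All 5 motifs were searched on both strands of the 6 windows, and only GC boxes were found. No window of Lox or Fbn2 was searched, so the motifs of these genes were not tested. This does not mean that RefSeq lists no window for them.

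Fbln2, a fibulin of basement membranes and elastic tissue, had 22.3, 29.4 and 34.1 CPM in the MOSE-PAX8 libraries, against 31.3, 48.2 and 29.3 CPM in the MOSE-NEO libraries. The lines overlapped. The log2 fold change was -0.34, with a 95% interval of -0.82 to 0.14 (edgeR adjusted p = 0.257), which holds both no change and a clear fall. The ratio of Fbln5 to Fbln2 per length was 5.43, 2.65 and 3.03 in the MOSE-PAX8 libraries, against 1.53, 0.761 and 2.58 in the MOSE-NEO libraries. Here the second MOSE-PAX8 library and the third MOSE-NEO library nearly met (exact permutation p = 0.1, two-sided, the smallest possible). The most abundant fibulin gene was in neither case one of these: Efemp1 (fibulin-3) held 70.3% to 72.6% of the summed fibulin level per length in MOSE-PAX8 and 73.5% to 77.3% in MOSE-NEO.

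**Figure D2:**
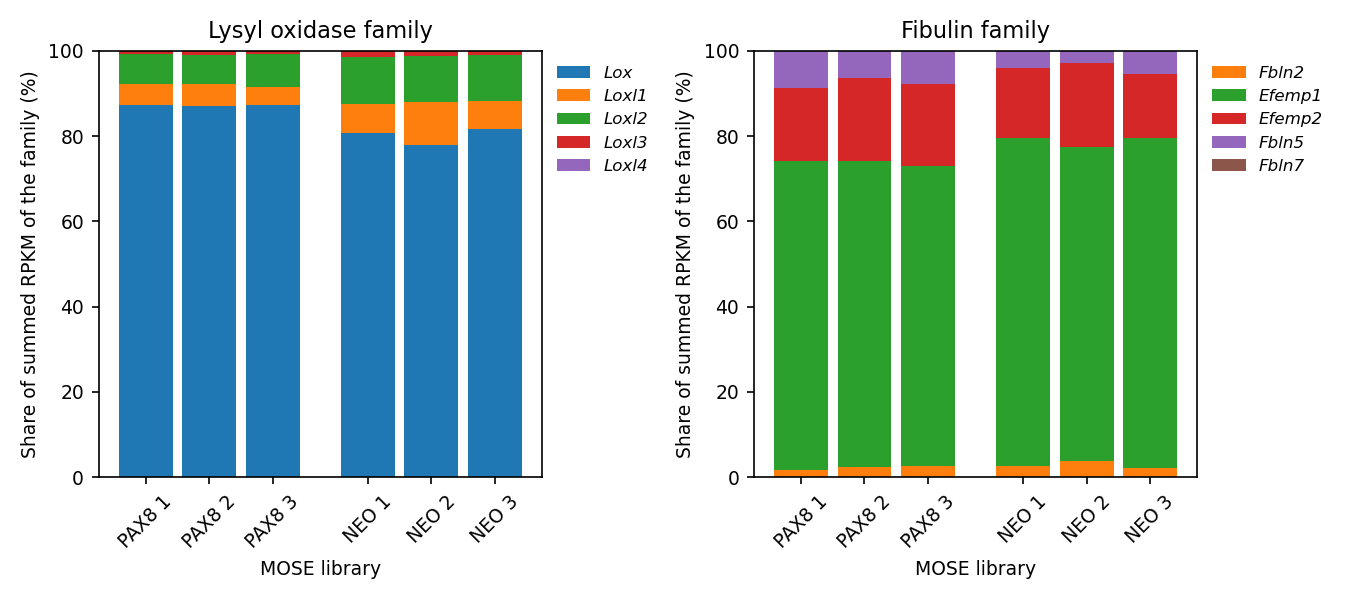
Share (%) of the summed RPKM (CPM per kilobase of exon) of the lysyl oxidase and fibulin families in each library, MOSE-PAX8 left of MOSE-NEO. Lox takes 87.1% to 87.2% of its family in MOSE-PAX8 and 77.9% to 81.6% in MOSE-NEO, and Fbln5 takes 6.32% to 8.77% of the fibulins in MOSE-PAX8 and 2.89% to 5.53% in MOSE-NEO.

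Elastin itself was close to the limit of detection. Eln had 3, 4 and 3 counts in the MOSE-PAX8 libraries, against 3, 1 and 1 in the MOSE-NEO libraries. The ratio of the summed counts was 1.68 with a 95% counting interval of 0.523 to 6.26, so no difference could be seen at this depth. Mfap5, also called MAGP-2, which binds fibrillin, had 1, 2 and 2 counts in MOSE-PAX8, against 0, 1 and 0 in MOSE-NEO, a ratio of 4.20 with an interval of 0.469 to 198. Fbn2, the fibrillin of embryonic microfibrils, and Fbln1, a fibulin of elastic fibres and basement membranes, had 0 counts in all 6 libraries. When tested without the filter on low counts, Eln and Mfap5 did not pass (edgeR adjusted p = 0.553 and 0.404).

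Levels can be ordered per length, as RPKM. In MOSE-PAX8 the order was Lox (709 ± 22.2), Loxl1 (39.2 ± 3.24), Fbln5 (15.8 ± 3.40), Loxl3 (6.43 ± 0.412), Fbln2 (4.49 ± 0.933) and Fbn1 (0.354 ± 0.0359), as mean RPKM ± SD over 3 libraries. No neighbours in that order overlapped. In MOSE-NEO the order was the same: Lox (515 ± 54.9), Loxl1 (50.1 ± 11.7), Fbln5 (8.38 ± 3.14), Loxl3 (7.64 ± 0.410), Fbln2 (5.69 ± 1.63) and Fbn1 (0.178 ± 0.029). There Fbln5, Loxl3 and Fbln2 were not separated, since their libraries spanned 5.76 to 11.9, 7.24 to 8.06 and 4.60 to 7.57 RPKM.

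The genes with the most similar pattern over the 6 libraries, by the root-mean-square difference of centred log2(CPM + 0.5), were named for the tested members of the largest change. For Fbn1 they were Ogfrl1 (0.0442), Hpgds (0.0452) and Afap1 (0.0624). For Fbln5 they were Maoa (0.117), Kcnk1 (0.154) and Cdsn (0.163). The pseudocount draws genes of very low level together, and the fitted log2 fold change of Hpgds (2.50) was well above that of Fbn1.

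The genes around the list were read from 6 partner lists, in which 49 of 74 genes could be tested, 9 rose, against 17.9% of all tested genes, and 16 fell, against 16.1% (the median log2 fold change was -0.17, against 0.008 over all tested genes). Together 51.0% of the 49 were called, against 33.9% of all tested genes, and the 9 include Ltbp1 and Ltbp2, which reached the test through their MOSE-PAX8 libraries. In the list of other elastic fibre and microfibril genes, 1 of 10 tested rose and 3 fell, a called share of 40% near the 33.9% of all tested genes. Adamtsl5, a fibrillin-binding ADAMTS-like protein, rose 1.97-fold to 6.88 ± 0.341 CPM in MOSE-PAX8, against 3.48 ± 0.427 CPM in MOSE-NEO (SD, n = 3 each, edgeR adjusted p = 0.00147). Adamtsl4, which binds fibrillin-1 microfibrils, fell 3.32-fold to 16.9 ± 2.37 CPM in MOSE-PAX8, against 55.9 ± 4.35 CPM in MOSE-NEO (adjusted p = 1.96e-05). Thsd4 (ADAMTSL6), which promotes fibrillin-1 assembly, fell 1.46-fold, and Emilin1, an elastin-associated glycoprotein, 2.69-fold at 0.472 CPM in MOSE-PAX8 and 1.27 CPM in MOSE-NEO. Mfap2, the close relative of Mfap5, had 0 counts in all libraries. Efemp2 (fibulin-4), which is needed for Lox to reach elastin in mice, had 144 ± 5.32 CPM in MOSE-PAX8 and 128 ± 19.5 CPM in MOSE-NEO (adjusted p = 0.248).

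Latent TGF-beta binding proteins are built from the same repeats as fibrillins and dock on microfibrils. In the list of these proteins with the TGF-beta ligands, 3 of 7 tested passed as higher and 1 as lower, but Ltbp1 and Ltbp2 among the 3 had enough counts for the test in MOSE-PAX8 only, so this count is not read against the 17.9% of all tested genes. Ltbp1 had 86, 105 and 110 counts in the MOSE-PAX8 libraries, against 7, 2 and 14 in the MOSE-NEO libraries. Ltbp2 had 14, 13 and 11 counts in MOSE-PAX8, against 3, 1 and 3 in MOSE-NEO. In both genes the lines did not overlap, and Ltbp2 missed the threshold with DESeq2 (adjusted p = 0.0539). Tgfb2, a ligand, had 113 ± 22.0 CPM in MOSE-PAX8 and 27.6 ± 6.07 CPM in MOSE-NEO. Ltbp4, which binds fibulin-5 and guides elastin assembly, fell 1.57-fold (156 ± 26.0 CPM in MOSE-PAX8 and 246 ± 27.6 CPM in MOSE-NEO, SD, n = 3 each, edgeR adjusted p = 0.0056).

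Among the other lysyl oxidases and the genes that process and load them, 3 of 9 tested rose, against 17.9% of all tested genes, and 3 fell, against 16.1%. Bmp1, the protease that cleaves the Lox propeptide, had 76.7 ± 10.2 CPM in MOSE-PAX8 and 121 ± 7.43 CPM in MOSE-NEO (SD, n = 3 each), a fall of 1.58-fold. It is on chromosome 14, whose median log2 fold change was -0.43, and with that median removed Bmp1 did not pass (edgeR adjusted p = 0.141). Pcolce, which enhances Bmp1 on procollagen, fell 1.41-fold, and Slc39a13, a zinc transporter needed for collagen modification, 1.29-fold. Of the copper genes, the importer Slc31a1 rose 1.32-fold and the pump Atp7a, which supplies copper to lysyl oxidases, 1.30-fold. The call of Slc31a1 ended without MOSE-PAX8 replicate 3 (adjusted p = 0.0569). That of Atp7a ended without MOSE-PAX8 replicate 2 or 3 (0.102 and 0.0883) and without MOSE-NEO replicate 2 or 3 (0.103 each), and that of Slc39a13 without MOSE-PAX8 replicate 1 or 3 (0.0839 and 0.085) and without MOSE-NEO replicate 1 or 2 (0.0711 and 0.0508), and with its chromosome median removed (0.0795). Fn1, a matrix scaffold for Bmp1 and Lox, rose 4.19-fold. Loxl2 had 316 ± 26.0 CPM in MOSE-PAX8 and 377 ± 27.6 CPM in MOSE-NEO (adjusted p = 0.0653), and Loxl4 no more than 17 counts in any library.

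**Figure D3:**
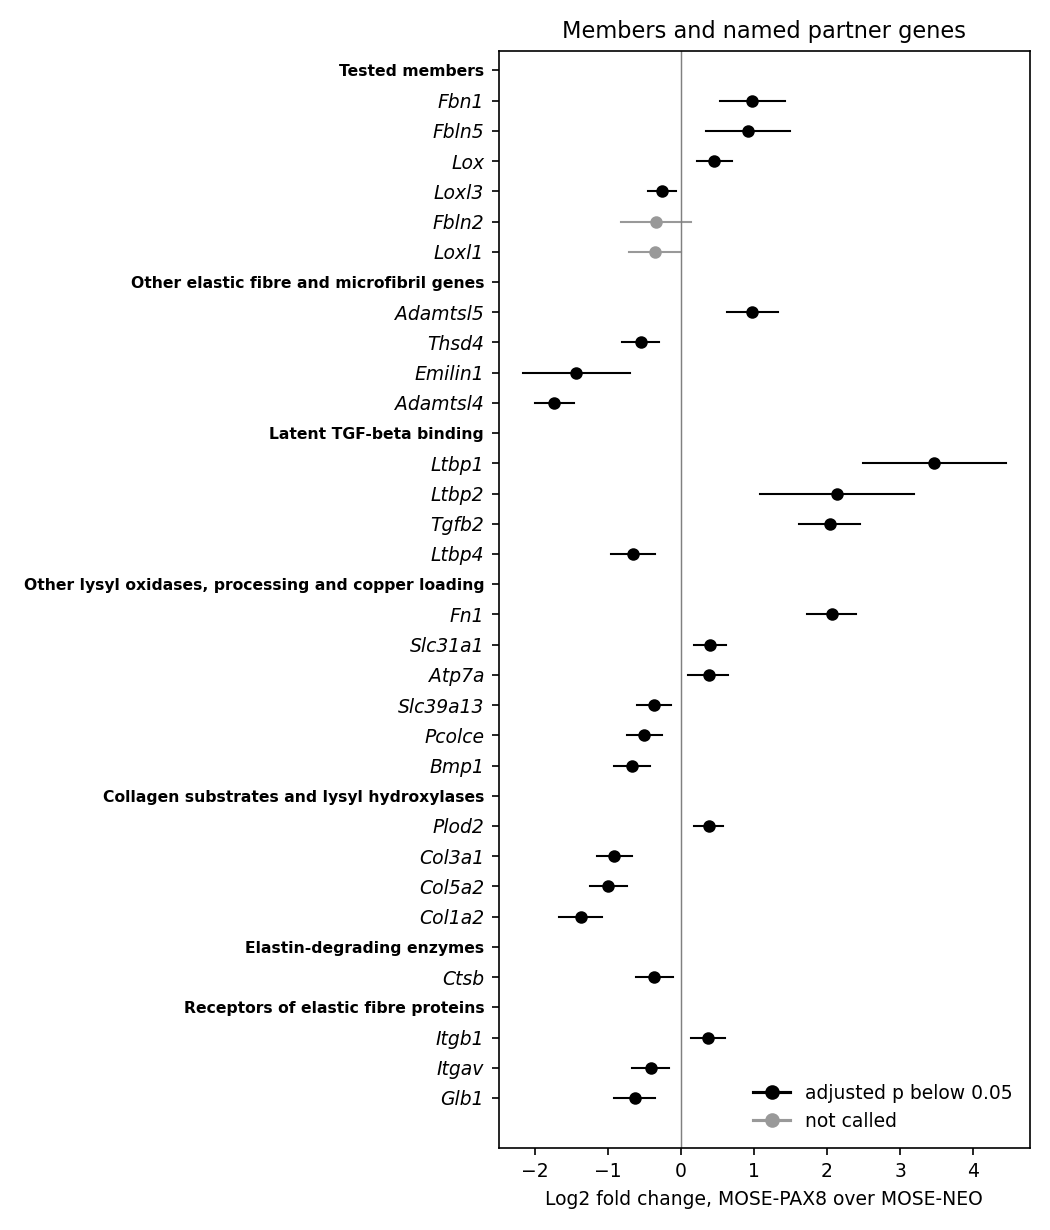
Log2 fold change (MOSE-PAX8 over MOSE-NEO, edgeR) with its 95% interval for the 6 tested members and the named genes of 6 partner lists; black marks an adjusted p below 0.05. Fbn1, Fbln5 and Lox lie right of 0 and Loxl3 left of it, while Col1a2, Col5a2 and Col3a1 lie between -1.37 and -0.91.

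Of the 5 fibrillar collagen genes, substrates of the lysyl oxidases, 4 fell, whereas Lox rose. In the whole list of 10 collagen and lysyl hydroxylase genes, 6 fell, against 16.1% of all tested genes, and 1 rose, against 17.9%. Col1a2, Col5a2 and Col3a1 fell 2.58-fold, 1.98-fold and 1.87-fold, each without overlap between lines, and the low Col5a1 fell 2.69-fold. Col1a1 did not pass (log2 fold change -0.34, edgeR adjusted p = 0.0884) and its libraries overlapped, at 2005 ± 287 CPM in MOSE-PAX8 and 2545 ± 352 CPM in MOSE-NEO (SD, n = 3 each). Plod2, the lysyl hydroxylase of collagen telopeptides, rose 1.31-fold to 204 ± 12.2 CPM in MOSE-PAX8, against 156 ± 12.5 CPM in MOSE-NEO (SD, n = 3 each, edgeR adjusted p = 0.00938). The summed level of Col1a1, Col1a2, Col3a1, Col5a1 and Col5a2 was 18550 ± 1116 CPM in MOSE-PAX8 and 37000 ± 3235 CPM in MOSE-NEO (SD, n = 3 each).

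Set against these collagens, Lox had 184, 167 and 198 counts per 1000 collagen counts in the MOSE-PAX8 libraries, against 68.0, 56.9 and 75.9 in the MOSE-NEO libraries. The lines were far apart: the lowest MOSE-PAX8 library was above the highest MOSE-NEO library by more than the range within either line. The ratio of the means was 2.74, and 2.55 to 2.93 with each library left out in turn. This ratio was not planned. It combines the rise of Lox with the fall of the collagen sum, so it is not a separate result. The exact permutation test (two-sided) gave p = 0.1, the smallest possible. For all lysyl oxidases together the value was 209 ± 17.7 in MOSE-PAX8 and 82.6 ± 10.4 in MOSE-NEO (SD, n = 3 each).

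**Figure D4:**
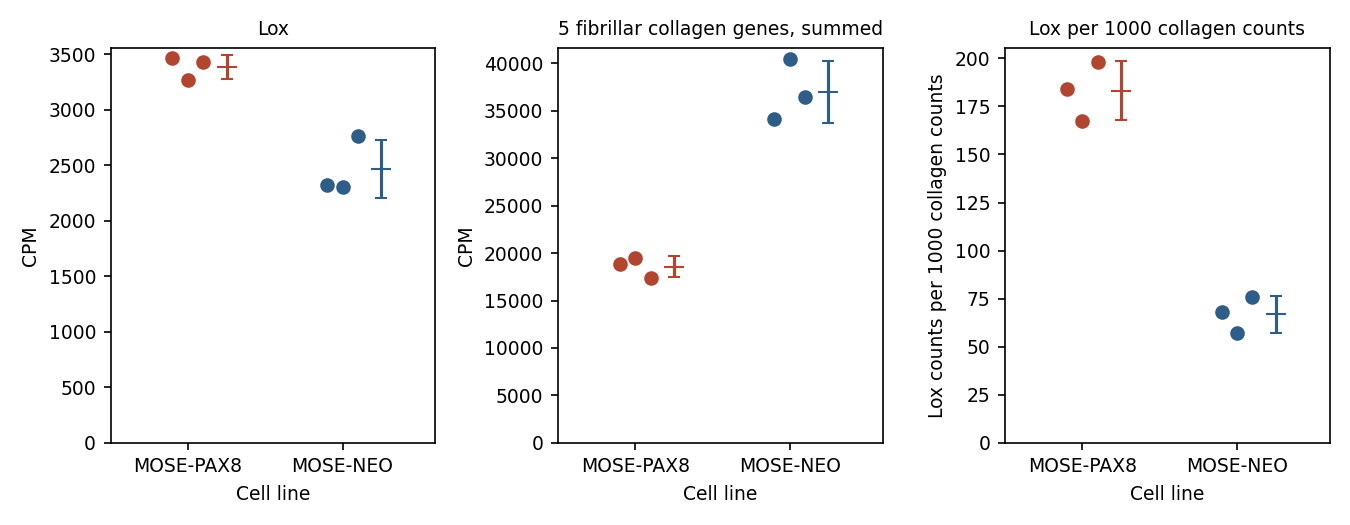
Lox (CPM), the summed level of 5 fibrillar collagen genes (CPM) and Lox counts per 1000 collagen counts in each library, with mean and SD (n = 3) beside the points, all axes from 0. Lox is higher and the collagen sum lower in MOSE-PAX8, and Lox per 1000 collagen counts is 167 to 198 in MOSE-PAX8 and 56.9 to 75.9 in MOSE-NEO.

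Called shares were 25% of 4 tested in the elastin degradation list and 33.3% of 9 in the list of elastic fibre receptors. Both were near or below the 33.9% of all tested genes. Whether each enzyme of the first list cleaves elastin was not examined. Of the 4 tested enzymes only Ctsb (cathepsin B) fell, by 1.28-fold. It is on chromosome 14, and its log2 fold change was -0.36, or 0.07 with the chromosome median removed. Its call also ended without MOSE-PAX8 replicate 1, 2 or 3 (edgeR adjusted p = 0.0759, 0.0875 and 0.0574) and without MOSE-NEO replicate 2 or 3 (0.105 and 0.0903). Mmp12 (macrophage elastase) had no more than 3 counts in any library, and Elane (neutrophil elastase) no more than 1. Of the 9 receptor genes 1 rose and 2 fell: Itgb1, the integrin beta-1 chain, was 1.29-fold higher, Itgav, the alpha-v chain that binds fibrillin-1 and fibulin-5, 1.33-fold lower, and Glb1, a splice variant of which is the elastin-binding protein in humans, 1.55-fold lower. The call of Itgb1 ended without MOSE-PAX8 replicate 1 or 3 (edgeR adjusted p = 0.0736 and 0.0949) or MOSE-NEO replicate 2 (0.0694), and that of Itgav without MOSE-PAX8 replicate 3 (0.0825), without the lincRNA-rich pair (0.0555) and with its chromosome median removed (0.0552).

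Markers of other cell types were read beside the members. The summed level of 8 smooth muscle and pericyte markers was 579.6 to 1113 CPM in MOSE-PAX8, against 14.2 to 17.8 CPM in MOSE-NEO, and 5 of 6 tested rose (17.9% of all tested genes did), of which Actg2 and Cnn1 had enough counts in MOSE-PAX8 only. Acta2 and Tagln carried it, while Myh11, a defining smooth muscle marker, had 0, 2 and 1 counts in the MOSE-PAX8 libraries, against 0, 1 and 2 in the MOSE-NEO libraries. The 8 stromal fibroblast markers summed to 1748 to 2409 CPM in MOSE-PAX8, against 2344 to 2743 CPM in MOSE-NEO, nearly all from Dcn and Gsn, and Pdgfra had no more than 5 counts in any library. Endothelial markers summed to 0.0943 to 0.216 CPM in MOSE-PAX8 and 0.217 to 0.930 CPM in MOSE-NEO. Leukocyte markers summed to 8.93 to 10.3 CPM in MOSE-PAX8 and 9.17 to 17.1 CPM in MOSE-NEO, and single markers went opposite ways. Ptprc, the pan-leukocyte antigen CD45, had 60, 49 and 87 counts in the MOSE-PAX8 libraries, against 0, 0 and 1 in the MOSE-NEO libraries. Csf1r, a macrophage receptor, fell 2.52-fold to 4.20 ± 0.913 CPM in MOSE-PAX8, against 10.6 ± 3.19 CPM in MOSE-NEO (SD, n = 3 each, edgeR adjusted p = 0.00373). Granulosa and theca markers summed to 24.4 to 26.1 CPM in MOSE-PAX8 and 27.3 to 32.3 CPM in MOSE-NEO, nearly all from Inha (an inhibin subunit), which averaged 23.2 CPM in MOSE-PAX8 and 30.3 CPM in MOSE-NEO. Foxl2, the defining granulosa transcription factor, had 57, 47 and 78 counts in the MOSE-PAX8 libraries, against 0, 1 and 0 in the MOSE-NEO libraries. The part of these markers in the changes of Fbn1, Fbln5 and Lox was not tested. In bulk RNA, fewer cells of a type and less RNA per cell cannot be told apart.

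**Figure D5:**
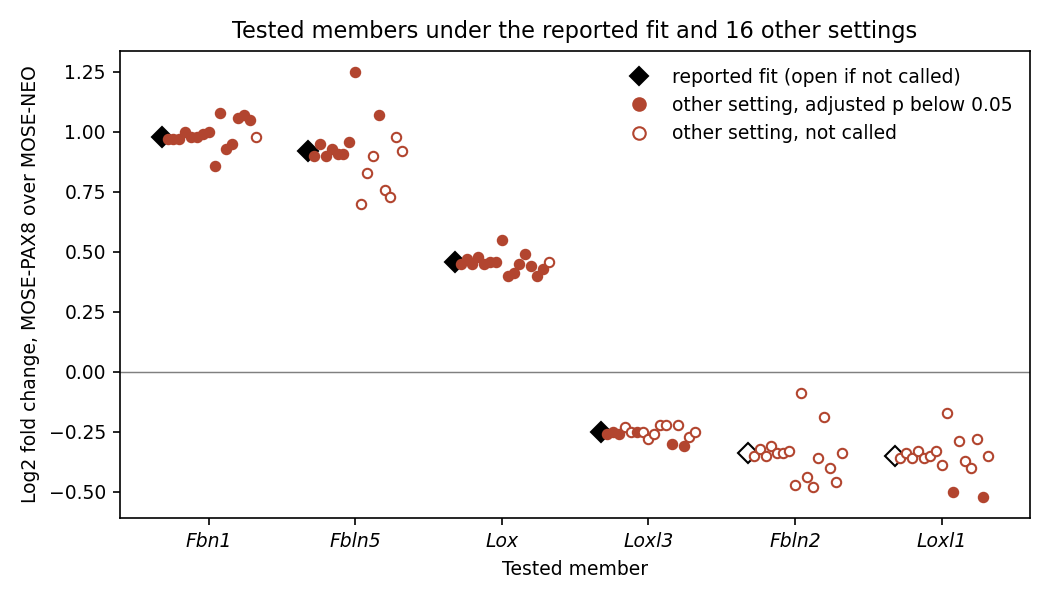
Log2 fold change (MOSE-PAX8 over MOSE-NEO) of the 6 tested members in the reported fit (diamonds) and under 16 other settings (circles), filled where the adjusted p was below 0.05. No setting turned the direction of a tested member; Fbn1 and Lox are filled in all but 1 setting, a test against a fold of 1.5, whereas Fbln5 and Loxl3 lost their calls in 7 and 10 settings.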

How the data were processed

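Each library's file holds whole read counts by Ensembl gene, not normalized, used as the authors deposited them. Per the submitters' processing notes, cutadapt 1.13, STAR, HTSeq 0.6.1p1 and DESeq2 were used on mm10. The sources used here do not give the gene annotation, strand setting or treatment of multiply aligned reads. Symbols, positions and exon lengths came from GENCODE M21, also on mm10 (24991 of 25006 identifiers matched).

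MOSE-PAX8 was compared with MOSE-NEO by edgeR 4.0.16 (R 4.3.3, quasi-likelihood, TMM factors, filterByExpr), adjusted by Benjamini-Hochberg over all 12313 tested genes. A positive log2 fold change means higher in MOSE-PAX8. Intervals of low counts are exact conditional (Clopper-Pearson) intervals at 95%. The fit was tested on simulated counts. Alternatives were DESeq2 1.42.0, limma-voom (limma 3.58.1), RLE and upper-quartile factors, other filters, a replicate block, libraries left out, chromosome medians removed, and a test against a fold of 1.5.

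The members and lists were chosen with earlier results of these data known. Text names all members, up to 3 called genes per direction and partner list by adjusted p, and the 3 genes of most similar pattern for the 2 called members of the largest change. Other genes were chosen after their values were seen.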

Additional observations from a re-analysis of the deposited data

How the results depend on the processing

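Of the 6 tested members, none changed direction in 16 other settings. A test against a fold of 1.5 called 0 members higher and 0 lower, and it called 700 genes higher and 370 lower of all tested, and 5 higher and 5 lower of the partner lists. The 3 members called higher became 2 (Fbn1 and Lox) with the chromosome medians removed, without the lincRNA-rich pair of libraries (MOSE-PAX8 replicate 2 and MOSE-NEO replicate 1), and without some single libraries (range 2 to 3). The 1 member called lower, Loxl3, became 0 with upper-quartile factors, with no low-count filter and with the replicate block (range 0 to 1 without each library). Without MOSE-NEO replicate 1, or without that pair, the 1 was Loxl1, not Loxl3. With each library left out in turn, 1545 to 2065 genes were higher and 1314 to 1843 lower, fewest without MOSE-PAX8 replicate 3. Among the partner lists, the microfibril genes called lower were 5, not 3, without MOSE-PAX8 replicate 2, and the oxidase-processing genes called higher were 1, not 3, without MOSE-PAX8 replicate 3. Ctsb turned to 0.07 with the chromosome median removed. The cause of the other changes was not tested.

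The labels do not say whether the replicate numbers pair the libraries, and correlations between libraries cannot decide it. Deviations of same-numbered libraries correlated at -0.488, 0.065 and 0.478 across genes, and not every library correlated best with its own number. The values largest in size joined different numbers. They were 0.671 for MOSE-PAX8 replicate 2 with MOSE-NEO replicate 1, the lincRNA-rich pair, and -0.714 for MOSE-PAX8 replicate 2 with MOSE-NEO replicate 3. With the replicate block, 2070 genes were higher and 1863 lower, and 3 members were higher. Depth limits Eln, Mfap5, Fbn2 and Fbln1, for which a change was not detectable.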

Other observations

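The latent TGF-beta binding proteins and fibrillins can be read as a single family, since they share their repeats. Per length, Ltbp3 and Ltbp4 made up nearly all of it. Ltbp3 held 63.6%, 70.0% and 69.0% of the summed level in the MOSE-PAX8 libraries, against 51.5%, 58.3% and 53.4% in the MOSE-NEO libraries. Ltbp4 held 35.7%, 29.1% and 30.0% in MOSE-PAX8, against 48.3%, 41.5% and 46.3% in MOSE-NEO. The shares did not overlap between the lines. As these genes held nearly all of the sum, a smaller share of Ltbp4 means a larger share of Ltbp3. Fbn1 held at most 0.557% in any MOSE-PAX8 library and at most 0.235% in any MOSE-NEO library, so the fibrillin that rose was a small part of the family in both lines.

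Of the partner lists, 3 genes had counts in each MOSE-PAX8 library and 0 in each MOSE-NEO library, a pattern chosen after the values were seen. The share of all genes with this pattern was not computed, so no reading is made of this count. The MOSE-PAX8 libraries had counts for more genes (15175 to 15578) than the MOSE-NEO libraries (14397 to 14934). Fbln7, a fibulin, had 4, 7 and 7 counts in the MOSE-PAX8 libraries and 0 in each MOSE-NEO library. This was 5.03-fold higher when set against 3 counts over the MOSE-NEO group, a value that leaves out the counting error of MOSE-PAX8. Lrrc32 (GARP), which holds latent TGF-beta at the cell surface, had 9, 6 and 9 counts in the MOSE-PAX8 libraries and 0 in each MOSE-NEO library. On the same basis, and with the same error left out, Lrrc32 was 6.71-fold higher. Itga4, an integrin chain, had 1, 3 and 1 counts in the MOSE-PAX8 libraries and 0 in each MOSE-NEO library. All 3 were too low for the test.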
